A study of Mus musculus with 6 samples.

Results

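The cytochrome P450 genes encode a superfamily of heme enzymes that insert an oxygen atom into drugs, fatty acids, sterols, steroids and vitamins. The members described here were the protein-coding genes of the deposited table whose mouse symbol is Cyp followed by a family number, a subfamily letter or letters and a gene number, with Cyp51 and symbols ending in -ps left out. The rule used no measured value, and it took 94 of the 34866 gene identifiers in the table. P450 symbols that end in a further letter (Cyp3a41a, Cyp3a41b, Cyp4a12a, Cyp4a12b and Cyp4a30b) fell outside it, and these 5 genes held 30 counts in all 6 libraries together. Of the members, 73 had at least 1 count and 21 had none. A filter on low counts left 34 for the test, and 39 with counts did not pass it.

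The data were bulk RNA-seq libraries of the gastric mucosa of the antrum, the distal part of the stomach, from mice. Each genotype had 3 libraries: wild type (Muc6 +/+) and knockout (Muc6 -/-), in which both copies of the gene for the secreted gland mucin MUC6 are disrupted. The study asked how Muc6 relates to gastric carcinogenesis. Strain, age, treatment, and any pooling of animals are not stated in the sources used here.

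The labels and libraries were checked first. Total counts were 19839799 to 21354029 per library. CPM is the count per 1e6 of a library size multiplied by a scaling factor (TMM). That factor was 0.862 to 0.868 in the wild-type libraries and 1.14 to 1.17 in the knockout libraries, so it differed by genotype. With it, 1 count was worth 0.0416 to 0.058 CPM. Muc6 stood at 396, 403 and 510 CPM in wild type and at 0.0425, 0 and 0 CPM in the knockout. The pit mucous cell markers of the antral surface (Gkn1, Gkn2, Tff1, Muc5ac, Capn8 and Sytl2) summed to between 157784 and 182078 CPM per wild-type library and to between 37410 and 47911 CPM per knockout library, which did not overlap. The Y-linked gene Ddx3y was at 39.3 to 41.1 CPM in the knockout libraries and did not exceed 0.326 CPM in the wild-type libraries, so sex and genotype cannot be told apart in any comparison below. Libraries numbered 1 stood apart from the others of their genotype on the second principal component, which held 19.6% of the variance. The summed fibroblast markers were 48.6 CPM in wild-type library 1 against 644 and 781 CPM in the other wild-type libraries. Where leaving out a library ended a call or moved it by a wide margin, that value is given.

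Most P450 enzymes sit in the membrane of the endoplasmic reticulum and receive electrons from NADPH-cytochrome P450 reductase, encoded by Por, while those in mitochondria receive them through ferredoxin. Families 1 to 3 act mainly on foreign compounds and on arachidonic acid, family 4 on fatty acids, and the other families on sterols, steroids, vitamin D and retinoic acid. Many of their genes are switched on through ligand-binding factors such as the aryl hydrocarbon receptor (AHR) and the nuclear receptors PXR and CAR. Liver holds most drug metabolism, and the gut and stomach lining carry a smaller set of these enzymes.

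A handful of P450 genes supplied most P450 counts of the wild-type antrum. Summed over the 94 members, wild type held 2234, 2040 and 2329 CPM (2201 ± 147, SD, n = 3). The knockout held 771, 806 and 874 CPM (817 ± 52.5, SD, n = 3), and the groups did not overlap. As a share of unscaled counts, the members held 0.177% to 0.201% of each wild-type library and 0.0881% to 0.101% of each knockout library. Cyp2c65 alone made up 42.3% to 50.6% of the summed CPM in the wild-type libraries and 28.4% to 31.9% in the knockout libraries. Together with Cyp2s1 and Cyp2j6 it made up 87.8% to 88.9% of the wild-type and 53.7% to 59.4% of the knockout sum. These are shares of counts, not corrected for gene length, so they are not shares of transcript molecules. In bulk tissue, fewer cells of a type and less RNA per cell cannot be told apart. By contrast, 22 members reached 1 CPM in all 3 wild-type libraries, 24 in all 3 knockout libraries and 18 in both.

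Levels were compared between genes as CPM per kb of merged exon. Cyp2c65, of a subfamily whose members convert arachidonic acid to epoxides and alcohols, ranked first in wild type with a level of 537 ± 47.9 CPM per kb (SD, n = 3). Cyp2s1, an AHR-inducible enzyme expressed mainly outside the liver, followed at 123 ± 28.1 CPM per kb. Cyp2j6, of a subfamily of fatty acid epoxygenases, ranked 3 at 82.4 ± 1.59 CPM per kb. Cyp3a13, a CYP3A enzyme of the gut, ranked 4 at 31.1 ± 0.217 CPM per kb, and Cyp2c23, an arachidonic acid epoxygenase best known from the kidney, ranked 5 at 16.4 ± 1.07 CPM per kb. Each of these 5 stood clear of the next gene in the order in every wild-type library.

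Below them the order was less firm. Cyp20a1, an enzyme with no settled substrate, was at 8.96 ± 0.719 CPM per kb, Cyp4f16 at 7.23 ± 1.83 and Cyp2d26 at 5.66 ± 1.01, and each overlapped its neighbour in this order. Cyp39a1, an oxysterol 7-alpha-hydroxylase, lay below Cyp2d26 without overlap at 3.93 ± 0.145 CPM per kb. Cyp2b10, the classic CAR target, ranked 10 at 3.04 ± 0.892 CPM per kb, and Cyp4v3 and Cyp4f13 closed the first 12 at 2.67 ± 0.342 and 2.54 ± 0.928. From Cyp39a1 down, neighbours in this order overlapped. The same 12 genes came first when length was taken from the longest transcript or when libraries were scaled to their total counts.

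**Figure D1:**
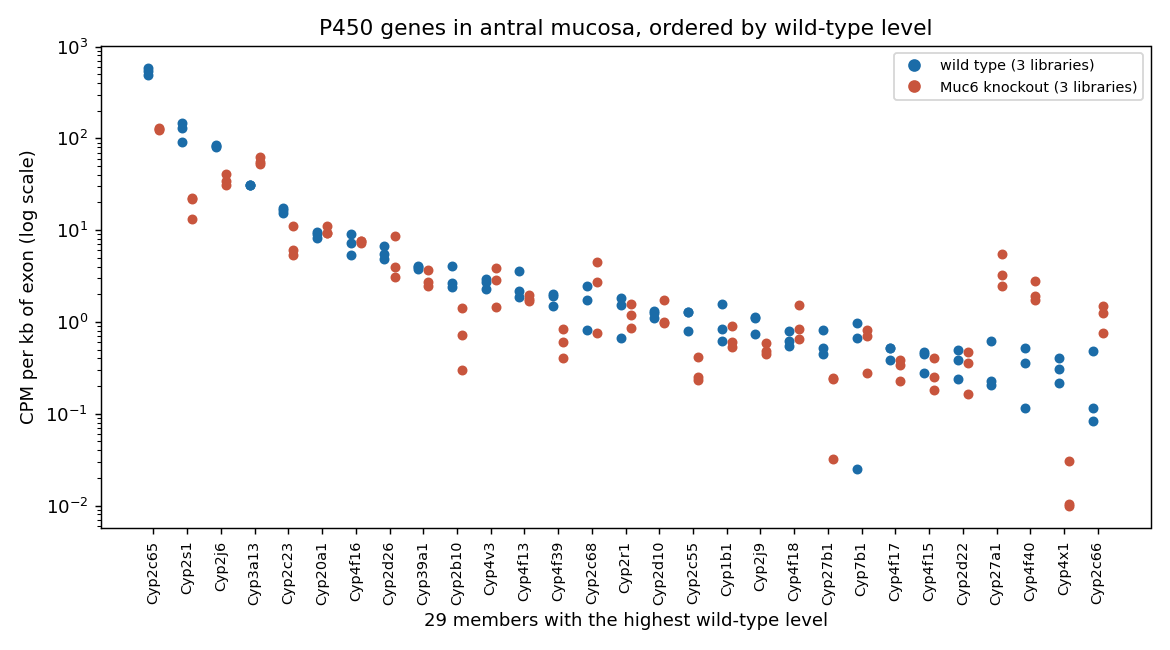
Level of the 29 members that ranked highest in wild type, in CPM per kb of exon on a log axis, with 1 point for each library (blue, wild type; red, knockout). Cyp2c65 stands highest in both genotypes, and Cyp3a13 is the one gene among the first 12 with knockout points above all wild-type points and past the test's threshold.

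The knockout order began with Cyp2c65 again, at 126 ± 3.61 CPM per kb, but Cyp3a13 moved from rank 4 to 2 at 56.7 ± 5.15 CPM per kb. Cyp2s1 moved from rank 2 to 4. Cyp3a11, which ranked 39 in wild type, ranked 9 in the knockout. Cyp27a1 moved from rank 26 to 10, Cyp4f14 from 38 to 11, and Cyp2b10 from 10 to 23.

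Of the 34 tested members, 9 were higher and 8 lower in the knockout and 17 did not pass the threshold of an adjusted p of 0.05. That is 50% of the tested members, against 38.4% of all 14017 tested genes, of which 19.3% were higher and 19.2% lower. The groups did not overlap for 21 of the members, against 54.8% of all tested genes, and these included all 17 that passed. At 2-fold or more, 8 members were higher and 8 lower, against 15.9% of all tested genes in either direction. The median log2 fold change was -0.14 over the tested members and 0.02 over all tested genes. Of the 9 higher members, 8 averaged under 1 CPM in wild type, whereas all 8 lower members averaged more than that. A gene near 0 in wild type enters the test only through the knockout, so these counts are a description of the members that passed the filter. The counts fell to 4 higher and 5 lower without wild-type library 2, and the higher count fell to 4 without knockout library 2.

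**Figure D2:**
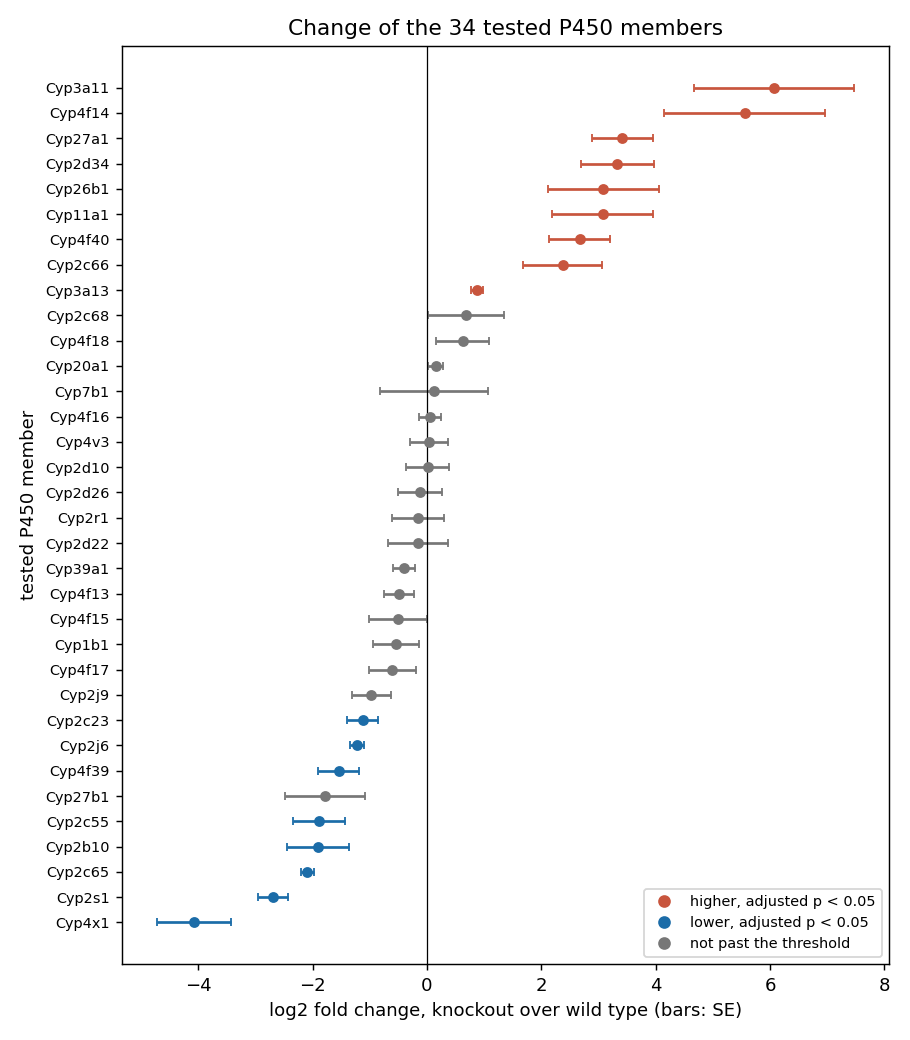
Log2 fold change of each of the 34 tested members, knockout over wild type, with bars of 1 standard error (red, higher; blue, lower; grey, not past the threshold). Cyp3a11 and Cyp4f14 lie farthest to the right with wide bars, Cyp4x1 lies farthest to the left, and the bars of Cyp2c65, Cyp2j6 and Cyp3a13 are narrow.

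Cyp2r1 of family 2 is counted below, with the enzymes of vitamin D and retinoic acid. Without it, families 1 to 3, which handle foreign compounds and arachidonic acid, held 58 members. Of the 58, 41 had counts and 16 were tested. Among the tested ones, 4 were higher and 6 lower in the knockout, beside 19.3% and 19.2% of all tested genes. The 3 most abundant P450 genes of the wild-type antrum were all among the lower ones. Cyp2c65 was at 945, 1032 and 1129 CPM in the wild-type libraries and at 246, 235 and 248 CPM in the knockout. The knockout values lay close together and far below the lowest wild-type value, a 4.27-fold difference (log2 fold change -2.09, SE 0.11, adjusted p = 1.13e-04). Cyp2s1 measured 726, 456 and 647 CPM in wild type and 65.1, 109 and 109 CPM in the knockout. It was 6.45-fold lower (log2 fold change -2.69, SE 0.26, adjusted p = 6.99e-04), with more spread between wild-type libraries than Cyp2c65. Cyp2j6 was at 293, 304 and 294 CPM in the wild-type libraries and at 147, 123 and 112 CPM in the knockout, 2.33-fold lower (log2 fold change -1.22, SE 0.12, adjusted p = 6.45e-04). These 3 calls held under every setting and every omission of a library. Their size did not: with libraries scaled to total counts the log2 fold changes were -1.68 for Cyp2c65, -2.27 for Cyp2s1 and -0.80 for Cyp2j6. Markers of some cell types differed between the same libraries, and those of others did not pass. Set beside the counts of markers, 19.3% of all tested genes were higher and 19.2% lower. The 6 pit cell markers were lower in the knockout, 5 of them under every setting, and Tff1 not with total counts (adjusted p = 0.289) or without wild-type library 3 or any one knockout library (0.0577 to 0.104). Forestomach squamous markers summed to 5.10 to 11 CPM in the wild-type libraries and 152 to 168 CPM in the knockout libraries, with 4 of 5 tested genes higher. Gland mucous markers summed to 5262 to 7328 CPM in wild-type and 12924 to 17871 CPM in knockout libraries, with 4 of 5 tested genes higher and Muc6 lower. Chief cell markers summed to 3973 to 5419 CPM and 136 to 1117 CPM, with 3 of 4 tested genes lower, and 4 of 7 tested parietal cell markers were lower and 1 higher. None of the 7 fibroblast, 5 smooth muscle and 6 macrophage markers tested passed, nor did the 1 tested pancreas acinar marker. The part of these cell types in the P450 differences was not tested.

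Cyp2c23 stood at 37.4, 36.1 and 32.9 CPM in wild type and at 24.1, 11.4 and 13.2 CPM in the knockout, where library 1 was highest. Its log2 fold change was -1.13 (SE 0.28, adjusted p = 0.0178). The call was lost without wild-type library 1, wild-type library 2 or knockout library 3 (adjusted p = 0.0509, 0.0646 and 0.0576) and with libraries scaled to total counts (0.0621). Cyp2b10 measured 8.58, 5.12 and 5.57 CPM in wild type and 0.637, 1.54 and 2.97 CPM in the knockout, so the groups did not overlap (log2 fold change -1.90, SE 0.54, adjusted p = 0.0279). It lost the call without any one of the wild-type libraries or knockout library 2 (adjusted p = 0.0568 to 0.0941) and with total counts (0.0551), and its log2 fold change was -2.55 without knockout library 3.

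Cyp3a13 was the one abundant member that was higher. It was at 92.1, 92.2 and 91.1 CPM in the wild-type libraries and at 154, 165 and 184 CPM in the knockout. The wild-type values were nearly equal, and the knockout values were 1.83-fold higher (log2 fold change 0.87, SE 0.10, adjusted p = 0.00101), a call that held under every setting. With total counts its log2 fold change was 1.29. Cyp3a13 shared no 100-base stretch of transcript with another gene. Cyp2d34 stood at 0.217, 0.337 and 0.058 CPM in wild type and at 2.46, 2.53 and 1.35 CPM in the knockout, 10.1-fold higher (log2 fold change 3.33, SE 0.63, adjusted p = 0.00622). The 3 other tested Cyp2d genes, Cyp2d26, Cyp2d10 and Cyp2d22, had log2 fold changes of -0.12, 0.01 and -0.16 and did not pass.

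Cyp3a11, the main CYP3A enzyme of mouse liver and intestine and a standard PXR target, had the highest fitted fold change of the tested members and a wide spread. It measured 0.326, 0.225 and 0.348 CPM in wild type and 1.4, 21.1 and 39.1 CPM in the knockout. All knockout libraries lay above all wild-type libraries, but library 1 lay far below the other 2. The log2 fold change was 6.07 (SE 1.40, adjusted p = 0.0230). Without any one wild-type library or knockout library 2 the adjusted p was 0.0551 to 0.0865, without the low-count filter it was 0.0595, and with limma-voom it was 0.435. Without knockout library 3 the log2 fold change was 5.21. Cyp3a25, of the same Cyp3a cluster on chromosome 5, had 1 count in all wild-type libraries and stood at 0.17, 2.7 and 6.28 CPM in the knockout, in the same order of libraries. It did not pass the filter. The ratio of its summed levels was 161 (95% exact interval 28.6 to 6402, counting error only), and with no filter it was higher (adjusted p = 0.0244). Where it entered the test without any one wild-type library, it did not pass (0.0651 to 0.0861), and without knockout library 1 it was higher (0.00188). Of the 100-base stretches of Cyp3a25, 6.79% also occur in another gene, so reads may have been split between copies.

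The promoter windows of Cyp3a11 and Cyp3a25 are printed because both genes were high in the same knockout libraries. They are the 250 bases before the annotated start in RefSeq on GRCm38.p6, for Cyp3a11 at chr5:145879855-145880104 and for Cyp3a25 at chr5:146009619-146009868, both read 5′ to 3′ along the minus strand. Capitals mark AGGTCA or AGTTCA on either strand, the hexamers bound by PXR and other nuclear receptors, a motif that was chosen after the values were seen.
Cyp3a11: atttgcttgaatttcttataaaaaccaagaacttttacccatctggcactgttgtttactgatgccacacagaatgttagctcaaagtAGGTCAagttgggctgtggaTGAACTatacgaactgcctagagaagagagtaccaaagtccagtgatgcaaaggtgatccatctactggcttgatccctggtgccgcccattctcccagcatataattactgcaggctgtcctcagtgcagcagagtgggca
Cyp3a25: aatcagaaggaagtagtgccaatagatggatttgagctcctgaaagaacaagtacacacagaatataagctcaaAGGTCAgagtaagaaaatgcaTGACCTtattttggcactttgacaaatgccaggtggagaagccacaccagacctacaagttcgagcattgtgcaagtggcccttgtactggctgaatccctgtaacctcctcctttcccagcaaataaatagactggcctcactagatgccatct
Each window holds 2 such hexamers. A RefSeq window was at hand for 73 of the 94 members, and 35.6% of these held one, as did 14.8% of the 27 windows of tested members (4 windows), against 24.2% of all 32536 windows of the same length. Among the 8 higher members with a window, 2 held one (Cyp3a11 and Cyp27a1), and none of the 6 lower members with a window did. Neither printed window holds GCGTG on either strand, the core motif of AHR sites. That motif was in 19.2% of the member windows, in 29.6% of those of tested members (8 of 27), in 2 of the 6 lower members, in none of the 8 higher members and in 28.3% of all windows. The window of Cyp11a1, a higher member, lay 8387 bases from the gene's start in GENCODE M21, another annotation. Those of Cyp1a1, Cyp2c29 and Cyp2d9 lay 9685 to 18940 bases from it. For 58 of 73 windows the bases after the start were found in a GENCODE transcript of the gene. Of the higher members, they were not found for Cyp27a1, Cyp4f40, Cyp26b1 and Cyp11a1. A match or its lack describes these letters in these windows and was not tested against binding.

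Markers of absorptive enterocytes, the columnar cells of the intestine that also express Cyp3a11, were listed beside it. Of the 15, 12 were highest in knockout library 3 and lowest in knockout library 1, as Cyp3a11 was. The share of all tested genes in that order was not counted, so the likeness is only a description. Of the list, 6 had all knockout libraries above all wild-type libraries. Among all tested genes, 54.8% had groups that did not overlap, in either direction. The genes Cdh17 and Sis were chosen after their values were seen. Cadherin 17 (Cdh17) was at 0.598, 0.225 and 0.116 CPM in the wild-type libraries and at 5.01, 90.2 and 199 CPM in the knockout. Sucrase-isomaltase (Sis) stood at 0, 0.0562 and 0.116 CPM in wild type and at 0.935, 14.5 and 27.9 CPM in the knockout. Of the list, 13 were tested, 4 were higher (Alpi, Sis, Mttp and Cdh17), 1 was lower (Fabp2) and 8 did not pass. Without any one wild-type library Cdh17, Sis and Mttp did not pass (adjusted p = 0.0648 to 0.105), nor did Fabp2 (0.108 to 0.110), while Alpi did. The whole list summed to 1910 to 2051 CPM in the wild-type libraries and to 1446, 2758 and 3237 CPM in knockout libraries 1, 2 and 3, so that knockout library 1 lay below the wild type, unlike for Cyp3a11. The disaccharidase genes Treh and Lct stayed at or below 0.232 CPM in wild type, and Treh reached 15.4 CPM in knockout library 3. The 10 hepatocyte markers summed to 38.8 to 44.0 CPM in the wild-type libraries and to 20.7, 32.0 and 69.5 CPM in knockout libraries 1, 2 and 3, again highest in library 3. Of 4 tested, Cps1 was higher and Hpx lower. The fibrinogen genes Fga and Fgb, picked from that list, were at 0 in all libraries but 1 each, at 0.0562 and 0.0436 CPM. Other genes of the list made up its sums. The part of RNA from either cell type in the Cyp3a11 result was not tested.

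**Figure D3:**
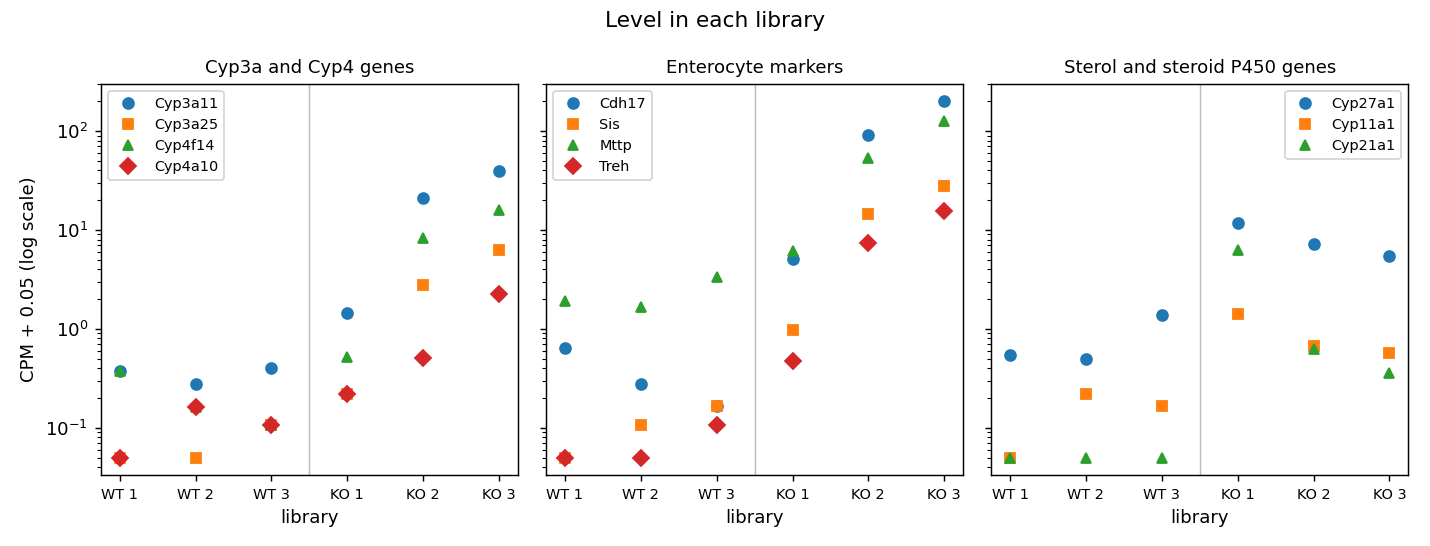
Level of single genes in each library, as CPM plus an offset of 0.05 on a log axis, for Cyp3a and Cyp4 genes (left), enterocyte markers (middle) and sterol and steroid P450 genes (right), with wild type to the left of the grey line. Cyp3a11, Cyp3a25, Cyp4f14 and Cyp4a10 are highest in knockout library 3 and lowest in knockout library 1, as are Cdh17, Sis, Mttp and Treh, whereas Cyp27a1, Cyp11a1 and Cyp21a1 are highest in knockout library 1. The enterocyte markers drawn were picked from a list of 15, of which 13 were tested, 4 were higher, 1 was lower and 8 did not pass.

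Cyp1 genes, the best known AHR targets, were weakly expressed in the antrum. Cyp1b1 measured 4.84, 3.6 and 9.16 CPM in wild type and 5.31, 3.57 and 3.14 CPM in the knockout, with overlapping groups (log2 fold change -0.55, adjusted p = 0.316). Cyp1a1 had 23 counts in wild type and 10 in the knockout, too few for the test, and Cyp1a2 had none. The liver genes Cyp2d9, Cyp2b9 and Cyp2a4, known for sex-biased expression in mouse liver, had at most 5 counts per genotype.

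The Cyp2c subfamily held genes that moved in opposite directions beside each other. Of its 15 members, 14 lie in a cluster on chromosome 19 and Cyp2c23 lies apart from it. Counts were found for 9 of the 15, 5 were tested, 3 were lower (Cyp2c65, Cyp2c55 and Cyp2c23) and 1 was higher (Cyp2c66). Cyp2c55 (chr19:39007019-39042693), Cyp2c65 (chr19:39061015-39093944) and Cyp2c66 (chr19:39113898-39187072, all mm10, plus strand) are consecutive in the cluster, with gaps of 18321 and 19953 bases between them. Cyp2c55 was at 1.58, 2.59 and 2.55 CPM in the wild-type libraries and at 0.467, 0.499 and 0.829 CPM in the knockout (log2 fold change -1.89, SE 0.45, adjusted p = 0.0148). Its call was lost without wild-type library 2, wild-type library 3 or knockout library 2 (adjusted p = 0.0650, 0.0510 and 0.0662). Cyp2c66 stood at 0.163, 0.225 and 0.928 CPM in wild type and at 1.49, 2.45 and 2.92 CPM in the knockout (log2 fold change 2.38, SE 0.69, adjusted p = 0.0309). Its groups did not overlap, but the call was lost without wild-type library 1 or 2 or knockout library 2 or 3 (adjusted p = 0.0530 to 0.113), and the log2 fold change was 3.50 without wild-type library 3. Cyp2c68, farther along the cluster, measured 1.41, 2.98 and 4.29 CPM in wild type and 1.32, 4.74 and 7.81 CPM in the knockout and did not pass (log2 fold change 0.67, adjusted p = 0.453; 0.07 on the log2 scale without knockout library 3).

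**Figure D4:**
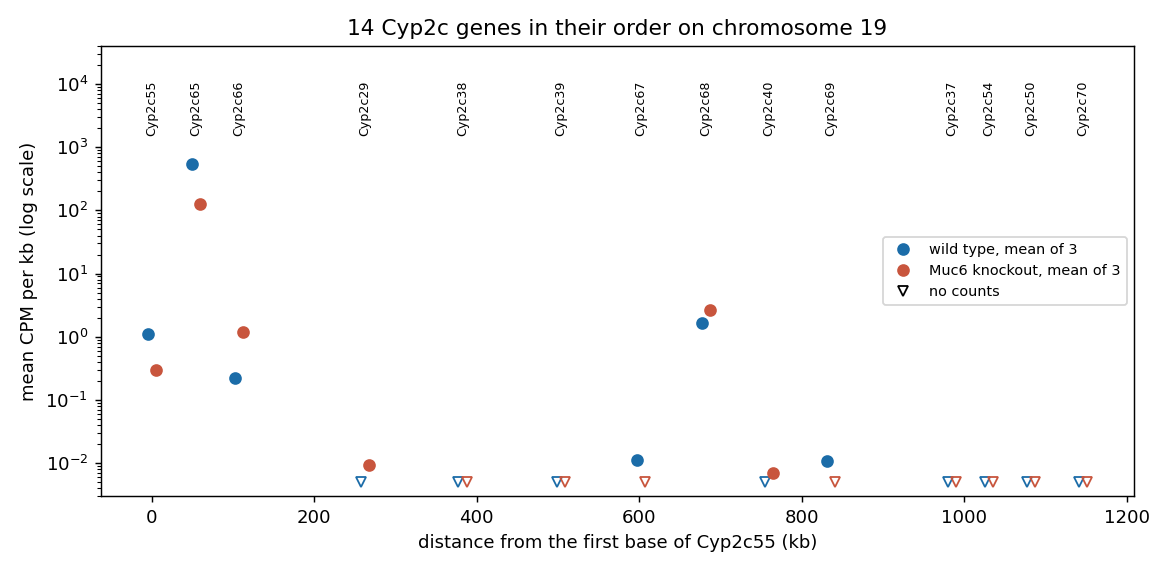
Mean level in CPM per kb, on a log axis, of the 14 Cyp2c genes of the chromosome 19 cluster against distance in kb from the first base of Cyp2c55 (blue, wild type; red, knockout; each the mean of 3 libraries; open triangles, no counts). Cyp2c55 and Cyp2c65 are lower and Cyp2c66 is higher in the knockout, and most genes farther along hold few counts or none.

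The promoter windows of Cyp2c65 and Cyp2c66 are printed because these neighbours went in opposite directions although their sequences are close. The windows, from RefSeq on GRCm38.p6, plus strand, are chr19:39060756-39061005 and chr19:39113648-39113897. Capitals mark the aligned bases at which they differ.
Cyp2c65: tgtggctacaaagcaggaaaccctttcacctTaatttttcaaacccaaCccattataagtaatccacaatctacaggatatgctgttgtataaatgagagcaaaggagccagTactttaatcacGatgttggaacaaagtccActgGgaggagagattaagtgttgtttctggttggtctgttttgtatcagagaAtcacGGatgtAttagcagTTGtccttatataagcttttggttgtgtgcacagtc
Cyp2c66: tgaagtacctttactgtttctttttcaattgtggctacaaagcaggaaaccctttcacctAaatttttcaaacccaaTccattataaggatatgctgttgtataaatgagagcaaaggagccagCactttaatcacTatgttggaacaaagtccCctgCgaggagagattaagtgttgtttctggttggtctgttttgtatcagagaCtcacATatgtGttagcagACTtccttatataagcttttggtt
They align over 221 bases, of which 208 are identical (94.1%) and 13 differ, with 1 gap of 17 bases that are present in Cyp2c65 and not in Cyp2c66. The longest transcripts, of 1928 and 1771 bases, are 87.5% identical. Despite this likeness the level per kb of Cyp2c65 was 2382 times that of Cyp2c66 in wild type and 107 times in the knockout. Of the 100-base stretches of Cyp2c65 and Cyp2c66, 7.82% and 7.35% also occur in another gene, so reads may have been split between copies, and the small count of Cyp2c66 is uncertain for that reason. Of the 17 members that passed, 12 shared no 100-base stretch with another gene. At 50 bases the shared part was 20.6% for Cyp2c65, 19.5% for Cyp2c66 and 8.7% for Cyp2b10, which shared none at 100 bases. It was 26.8% for Cyp3a25, 29.8% for Cyp4a10 and 21.3% for Cyp21a1, which were not tested. Cyp2s1, Cyp2c23, Cyp3a13, Cyp4f39, Cyp27a1 and Cyp26b1 shared none at either length.

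Family 4, whose enzymes hydroxylate fatty acids and leukotrienes at the end of the chain, held 17 members, of which 14 had counts and 10 were tested. Of these, 2 were higher and 2 lower, beside 19.3% and 19.2% of all tested genes. Cyp4f14, a leukotriene B4 hydroxylase, was at 0.326, 0.112 and 0.058 CPM in the wild-type libraries and at 0.467, 8.23 and 15.8 CPM in the knockout. Knockout library 1 lay close to the wild type and libraries 2 and 3 far above it, the order seen for Cyp3a11 and 12 of the 15 enterocyte markers. How many of all tested genes follow that order was not counted. The log2 fold change was 5.56 (SE 1.41, adjusted p = 0.0252). The adjusted p was 0.0554 to 0.101 without any one wild-type library or knockout library 2, 0.0668 with no filter and 0.388 with limma-voom. The log2 fold change was 4.66 without knockout library 3 and 6.47 without wild-type library 1. Cyp4a10, a PPAR-alpha target that hydroxylates fatty acids, had 3 counts in wild type and was at 0.17, 0.457 and 2.22 CPM in the knockout. It did not pass the filter, its ratio of summed levels was 16.7 (95% exact interval 5.46 to 82.9, counting error only), and with no filter it was higher (adjusted p = 0.0329). Where it entered the test without any one wild-type library, it did not pass (0.0949 to 0.118), and without knockout library 1 it was higher (0.0221). Of the 100-base stretches of Cyp4a10, 12.2% also occur in another gene, so its small count is uncertain. Cyp4b1 also failed the filter, with 14 counts in wild type and 103 in the knockout, and did not pass the test without it (adjusted p = 0.0673). Where Cyp4b1 entered the test without any one wild-type library, it did not pass (0.0977 to 0.210). Without knockout library 1 it entered the test and was higher (0.0221).

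Cyp4f40 stood at 1.3, 0.9 and 0.29 CPM in wild type and at 4.33, 4.78 and 6.89 CPM in the knockout, 6.36-fold higher in libraries that did not overlap (log2 fold change 2.67, SE 0.53, adjusted p = 0.00744). Unlike Cyp4f14, its 3 knockout libraries lay close together. Cyp4f39, the mouse counterpart of the human skin gene CYP4F22, measured 5.43, 4.22 and 5.68 CPM in wild type and 1.15, 2.37 and 1.74 CPM in the knockout, 2.91-fold lower (log2 fold change -1.54, SE 0.36, adjusted p = 0.0136). Cyp4x1 was at 1.68, 0.9 and 1.28 CPM in the wild-type libraries and at 0.127, 0.0416 and 0.0436 CPM in the knockout. It had 69 counts against 5, was 16.8-fold lower, and had the greatest fall of the members (log2 fold change -4.07, SE 0.65, adjusted p = 0.00316; -4.73 without knockout library 1). The calls of Cyp4f40, Cyp4f39 and Cyp4x1 held under every setting that tested them, and a filter of 1 CPM in 3 libraries left Cyp4x1 untested. The other Cyp4f genes tested had log2 fold changes of 0.05 for Cyp4f16, 0.62 for Cyp4f18, -0.48 for Cyp4f13, -0.51 for Cyp4f15 and -0.60 for Cyp4f17, and none passed. The Cyp4f genes together summed to 33.1 to 54.9 CPM in the wild-type libraries and 41.3 to 58.7 CPM in the knockout libraries, which overlapped.

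Sterol and steroid enzymes held 12 members, of which 11 had counts and 4 were tested. Of these, 2 were higher and none lower, beside 19.3% and 19.2% of all tested genes. Cyp27a1, the mitochondrial sterol 27-hydroxylase of bile acid synthesis, stood at 0.489, 0.45 and 1.33 CPM in wild type and at 11.8, 7.11 and 5.41 CPM in the knockout. The lowest knockout library was above the highest wild-type library, and the level was 10.7-fold higher (log2 fold change 3.41, SE 0.53, adjusted p = 0.00285; 4.08 without wild-type library 3). This call held under every setting. Cyp11a1, the side-chain cleavage enzyme that begins steroid synthesis, measured 0, 0.169 and 0.116 CPM in wild type and 1.36, 0.623 and 0.523 CPM in the knockout. It rested on 5 counts against 59 (log2 fold change 3.07, SE 0.88, adjusted p = 0.0286). The call was lost without wild-type library 2 or 3 or knockout library 1 or 2 (adjusted p = 0.0633 to 0.0841), and the log2 fold change was 3.76 without wild-type library 2. Cyp21a1, the steroid 21-hydroxylase, had no counts in wild type and was at 6.29, 0.582 and 0.305 CPM in the knockout, at least 42.7-fold higher against a floor of 3 counts over the wild-type group. Of its 169 counts, 148 were in knockout library 1. Without that library, an omission chosen after the values were seen, the mean was 0.444 CPM and the bound 7.90-fold. Cyp21a1 did not pass the filter. Its adjusted p was 0.129 without the filter. Where it entered the test without any one wild-type library, it did not pass (0.105 to 0.117). Without knockout library 3, which kept library 1, it was higher (0.0451). Of the 100-base stretches of Cyp21a1, 5.08% also occur in another gene, so reads may have been split between copies. Of markers of steroid-making glands, Hsd3b1 and Hsd3b6 had no counts and Star was at 1.45 to 2.55 CPM in all 6 libraries.

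The oxysterol hydroxylases did not pass. Cyp39a1 was at 12, 12.4 and 11.5 CPM in the wild-type libraries and at 11.3, 8.35 and 7.55 CPM in the knockout, with no overlap (log2 fold change -0.40, adjusted p = 0.136). Without knockout library 1 it passed (log2 fold change -0.59, adjusted p = 0.0420). Cyp7b1 stood at 0.0543, 1.46 and 2.09 CPM in wild type and at 0.595, 1.79 and 1.53 CPM in the knockout (log2 fold change 0.12, adjusted p = 0.931). Its lowest values were in the libraries numbered 1, and wild-type library 1 was also lowest in fibroblast markers. The part of stromal RNA in its values was not tested. Cyp7a1, the rate-limiting enzyme of classic bile acid synthesis, had 1 count in 6 libraries, and Cyp19a1, the aromatase, had none.

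Enzymes of vitamin D and retinoic acid were 6 members, all with counts, and 3 were tested. Cyp26b1, which clears retinoic acid, measured 0, 0.112 and 0.696 CPM in wild type and 1.74, 3.2 and 1.96 CPM in the knockout. It was 8.48-fold higher (log2 fold change 3.08, SE 0.97, adjusted p = 0.0406). The call was lost without wild-type library 2 or any one knockout library (adjusted p = 0.0550 to 0.15), and the log2 fold change was 5.22 without wild-type library 3. Cyp27b1, which makes active vitamin D, was at 2.12, 1.35 and 1.16 CPM in the wild-type libraries and at 0.637, 0.0831 and 0.611 CPM in the knockout. The groups did not overlap, but it did not pass (log2 fold change -1.79, SE 0.70, adjusted p = 0.0782). Cyp2r1, the vitamin D 25-hydroxylase, overlapped between the groups (log2 fold change -0.15, adjusted p = 0.813), and Cyp24a1, which degrades active vitamin D, had 1 count in the knockout and none in wild type.

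Among the 17 tested members that did not pass, log2 fold changes ran from -1.79 to 0.67 and adjusted p values from 0.0565 to 0.98. For 4 of them the groups did not overlap: Cyp39a1, Cyp2j9, Cyp27b1 and Cyp4f17. Cyp2j9 stood at 3.69, 3.77 and 2.49 CPM in wild type and at 1.49, 1.62 and 1.96 CPM in the knockout (log2 fold change -0.97, adjusted p = 0.0565), and it passed with DESeq2 (0.0441) and with limma-voom (0.0480). Cyp20a1 had a wild-type level of 20.5 ± 1.64 CPM and a knockout level of 22.8 ± 2.22 CPM (SD, n = 3 each; adjusted p = 0.379), but passed with libraries scaled to total counts (log2 fold change 0.57, adjusted p = 0.00777). That scaling moved the median of all tested genes from 0.02 to 0.43 on the log2 scale. Cyp4v3 and Cyp4f16 had log2 fold changes of 0.03 and 0.05.

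Transcripts for the supply of electrons and heme to P450 enzymes held calls in both directions. Of 13 tested genes of this list, 5 were higher, 2 lower and 6 did not pass, which is 53.8% called against 38.4% of all tested genes. Their median log2 fold change was 0.37, against 0.02 over all tested genes. Por measured 91.5, 63.8 and 80.8 CPM in wild type and 163, 171 and 148 CPM in the knockout (log2 fold change 1.03, SE 0.15, adjusted p = 0.00209). Cytochrome b5 (Cyb5a), which passes a further electron to some P450 enzymes, was at 454, 511 and 539 CPM in the wild-type libraries and at 179, 151 and 153 CPM in the knockout (log2 fold change -1.64, SE 0.12, adjusted p = 2.72e-04). These were opposite changes with no overlap in either gene. Cytochrome b5 reductase 3 (Cyb5r3) was higher (log2 fold change 0.67, adjusted p = 0.00332). Pgrmc1, a heme-binding partner, was lower (log2 fold change -0.52, adjusted p = 0.00480), though not with total counts (0.365).

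Receptors and regulators of P450 genes also held calls in both directions. Of 19 tested, 6 were higher and 3 lower, beside 19.3% and 19.2% of all tested genes, with a median of 0.14. The bile acid receptor gene Nr1h4 was lower (log2 fold change -1.43, adjusted p = 7.72e-04), and so were Pparg (-0.97, adjusted p = 0.00878) and Nfe2l2 (-0.47, adjusted p = 0.00984). With total counts Pparg and Nfe2l2 did not pass (0.0534 and 0.654), and Nfe2l2 did not pass without knockout library 2 (0.0521). Rarg, a retinoic acid receptor gene named after its values were seen, was higher (log2 fold change 0.85, adjusted p = 0.0121). Ahr and Nr1i2, which encodes PXR, had log2 fold changes of -0.17 and -0.20 and did not pass (adjusted p = 0.425 and 0.446). Vdr, named after its values were seen, stood at 6.14, 3.71 and 4.29 CPM in wild type and at 8.92, 33.6 and 47.5 CPM in the knockout, the library order of Cyp3a11 (adjusted p = 0.0227). Its adjusted p was 0.0612 to 0.0900 without any one wild-type library or knockout library 2.

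Other known AHR targets held 7 tested genes, of which 1 was higher and 3 lower, beside 19.3% and 19.2% of all tested genes. The quinone reductase Nqo1 measured 1104, 1031 and 1158 CPM in wild type and 280, 183 and 195 CPM in the knockout (log2 fold change -2.32, SE 0.18, adjusted p = 3.26e-04). Gsta1 (log2 fold change -2.68, adjusted p = 5.53e-04) and Tiparp (-1.17, adjusted p = 7.15e-04) were lower as well, whereas the glucuronosyltransferase Ugt1a7c was higher (1.29, adjusted p = 0.00379). Nqo1 and Gsta1 are also targets of the factor encoded by Nfe2l2. Among P450 genes outside the naming rule, 3 were tested, and Cyp51, the lanosterol demethylase of cholesterol synthesis, was lower (log2 fold change -0.76, adjusted p = 0.00417; 0.0632 with total counts).

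Of 12 tested enzymes and carriers that act beside P450 enzymes, 2 were higher and 2 lower, with a median of -0.37. Over all tested genes, 19.3% were higher and 19.2% lower. The 2 main epoxide hydrolases went in opposite directions. Ephx1, the microsomal enzyme, was at 26.2, 24.1 and 24.4 CPM in the wild-type libraries and at 162, 74.6 and 64.4 CPM in the knockout (log2 fold change 2.01, SE 0.37, adjusted p = 0.00798). Ephx2, the soluble enzyme that hydrolyses fatty acid epoxides, stood at 178, 134 and 142 CPM in wild type and at 82.2, 76.9 and 96.3 CPM in the knockout (log2 fold change -0.83, SE 0.15, adjusted p = 0.00456). The retinaldehyde dehydrogenases, which make the retinoic acid that CYP26 enzymes clear, also split. Aldh1a1 measured 297, 308 and 302 CPM in wild type and 96.1, 86.1 and 110 CPM in the knockout (log2 fold change -1.64, adjusted p = 2.55e-04). Aldh1a3 was at 0.543, 0.9 and 1.04 CPM in the wild-type libraries and at 274, 110 and 55.4 CPM in the knockout (log2 fold change 7.46, SE 0.86, adjusted p = 0.00267; 0.0534 with limma-voom). Over these 5 lists 14 of 54 tested genes were higher and 11 lower, which is 46.3% called against 38.4% of all tested genes. Scaling to total counts gave 21 and 7.

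**Figure D5:**
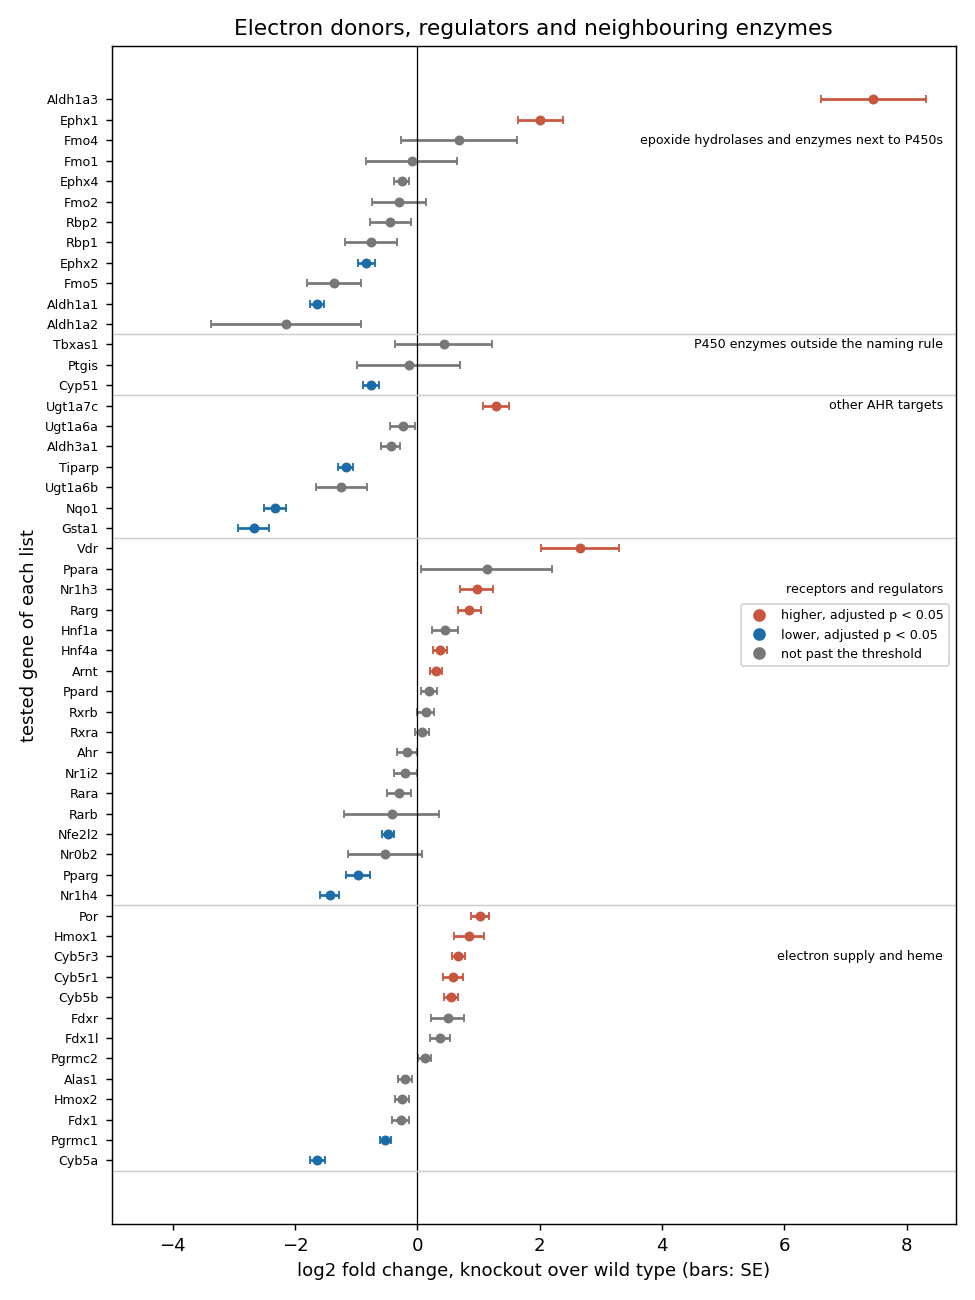
Log2 fold change, knockout over wild type, of tested genes of the 5 lists of electron donors, regulators, AHR targets, other P450 enzymes and neighbouring enzymes, with bars of 1 standard error (red, higher; blue, lower; grey, not past the threshold). Por and Cyb5a, Ephx1 and Ephx2, and Aldh1a3 and Aldh1a1 lie on opposite sides of 0.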

How the data were processed

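The authors deposited 1 table of estimated counts per gene for 6 polyadenylated RNA libraries, taken as estimated counts because 28.8% to 34.3% of each library's nonzero values are fractional. The genome build was mm10, per the submitters' processing notes. RNA was extracted with a Nucleospin kit and libraries were made with a stranded TruSeq mRNA kit, per the labels' protocols. An aligner, a counter and a strand setting were not given in the sources used here.

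Groups follow the labelled genotype. Nothing in the labels ties replicates to separate animals, so p-values reflect only how far these samples spread, possibly for technical reasons. Chi-square per degree of freedom between libraries of 1 genotype was 17.1 to 85.4, above counting noise, so each was counted. Of 34866 identifiers, 34652 were matched to GENCODE M21 without their version suffix. The other 214 held 0.0185% to 0.0296% of counts.

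Counts were rounded to whole numbers, filtered with filterByExpr, scaled with TMM factors and tested over all 14017 genes kept with edgeR 4.0.16 quasi-likelihood fits (R 4.3.3), with Benjamini-Hochberg adjusted p values and a threshold of 0.05. P values were adjusted over all tested genes. The biological coefficient of variation, common to all genes, was 0.283. The fit was tested on simulated data. The floor of 3 counts over a group was 0.0562 CPM in wild type. Intervals and floors cover counting error only.

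Alternatives were RLE, upper-quartile and total-count scaling, no filter, 1 CPM in 3 libraries, DESeq2 1.42.0, voom in limma 3.58.1, a replicate block and left-out libraries. The text names the 12 members highest in wild type, every member past the threshold, untested or uncalled members mainly of their subfamilies, and up to 4 genes per partner list by smallest adjusted p, of which 1 gene is not reported here. The members and lists were chosen with earlier results of these data known. Nr1i2, Ahr, Cdh17, Sis, Treh, Lct, Fga, Fgb and members with few counts were named after their values were seen.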

Additional observations from a re-analysis of the deposited data

How the results depend on the processing

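No member reversed its direction among the 17 that passed, under any alternative. The calls of Cyp2c65, Cyp2s1, Cyp2j6, Cyp3a13, Cyp4f39, Cyp4f40, Cyp4x1, Cyp27a1 and Cyp2d34 held in all of them, except that a filter of 1 CPM in 3 libraries left Cyp4x1 untested, as it did Cyp4f14 and Cyp11a1. Under total counts 5730 of all tested genes were higher and 1091 lower, against 2699 and 2687, and 7 list genes were lower against 11. The cause was not tested. Leaving out each library in turn gave 1600 to 3045 genes higher and 1721 to 2964 lower, 4 to 10 members higher and 5 to 9 lower, and 9 to 17 list genes higher and 10 to 14 lower. The lowest list count came without wild-type library 2 or 3 or knockout library 2. Without knockout library 1, an alternative chosen after seeing the data, the bound of Cyp21a1 was 7.90-fold. The other settings gave 7 to 11 members higher and 6 to 9 lower.

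Whether replicate numbers pair the samples was not settled. Same-numbered libraries had correlations of 0.252, 0.0908 and 0.191 between deviations from their group means. Wild-type library 3 correlated most with knockout library 2 (0.275), and wild-type library 1 most with knockout library 1. Both libraries numbered 1 lay on the same side of the second principal component (62.6 and 43.3). The others lay on the opposite side (-18.8 to -43.7). With the replicate number as a block, 7 members were higher and 8 lower, 2572 of all tested genes were higher and 2497 lower, and 11 list genes were higher and 16 lower. Cyp4f14 and Cyp11a1 did not pass in that fit (adjusted p = 0.0609 and 0.0564). Without both libraries numbered 1, the log2 fold change was 1.94 for Cyp11a1 (adjusted p = 0.0522), 7.01 for Cyp4f14, 2.79 for Cyp27a1 and -1.27 for Cyp2b10. The wild-type group held 5 counts of Cyp11a1 and 23 of Cyp2c66, so their values are imprecise.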
